A study of Mus musculus with 19 samples.

Results

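The comparison described here set abdominal aortas of mice irradiated 3 days before the start of angiotensin II (AngII) infusion (D-3 IR, n = 7) against those of mice irradiated 1 day after it (D+1 IR, n = 7). The libraries were taken by their titles, 14 of the 19 in the series, and the other 5 came from AngII-infused mice that were not irradiated (control). All mice were male Apoe-/- mice on the C57BL/6J background, 8 to 10 weeks old when the AngII pump was placed, and the irradiated ones received 1 Gy of X-rays to the whole body. The groups therefore shared the Apoe deletion and the AngII infusion and differed in when, or whether, they were irradiated. The sources used here do not say on which day the sequenced aortas were collected. The study states that its mice for tissue analyses were killed on day 7, without naming the sequenced aortas. The question was whether the timing of the dose relative to AngII is seen in the RNA of the vessel wall. If all aortas were collected on the same day of infusion, more time had passed since the dose in D-3 IR. Timing relative to AngII and time since irradiation can then not be told apart.

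AngII infusion into mice that lack apolipoprotein E is a common model of abdominal aortic aneurysm, in which smooth muscle cells of the media lose contractile proteins, elastic fibers break and leukocytes enter the wall. Smooth muscle genes such as Acta2 and Myh11 are switched on by serum response factor with myocardin, which bind a DNA element called the CArG box. An aorta taken for bulk RNA also holds blood, perivascular fat, nerve and, at times, neighbouring muscle or lymph node. Reticulocytes, the youngest red cells in blood, still carry RNA for hemoglobin, heme synthesis and the membrane skeleton, and GATA1 is the transcription factor that drives these genes.

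The D-3 IR libraries held 27407579 to 87410421 counts in genes (median 40804998) and the D+1 IR libraries 25839001 to 97083681 (median 49077787). At this depth the spread between mice, and not the counting error, limited the precision for most genes. The files of D+1 IR 1, 2 and 3 carry another series number in their names (41) than all other files (61), so the main counts are also given without them. The share of counts in genes of the mitochondrial genome was 14.1% to 22.9% in those 3 libraries, 4.49% to 14.5% in the other D+1 IR libraries and 7.27% to 14.4% in D-3 IR. Smooth muscle markers were present in every library, with Acta2, the smooth muscle actin, at 5823 to 15562 CPM (median 10094) in D-3 IR and at 698 to 10948 CPM (median 4174) in D+1 IR. Apoe, the deleted gene, was still counted, from exons that gene-level counts do not tell apart, at 3.58 to 25.1 CPM (median 10.4) in D-3 IR and 11.5 to 31.9 CPM (median 20.1) in D+1 IR.

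Some libraries stood apart in markers of other cells. D-3 IR 10 and D+1 IR 3 held most of the lymphocyte RNA, with the summed level of the 20 T cell genes at 457 and 252 CPM against 8.48 to 49.8 CPM in the other irradiated libraries. D-3 IR 10, D-3 IR 15 and D+1 IR 3 held most of the skeletal muscle RNA, and D+1 IR 20 the most macrophage RNA. CPM are counts scaled to a common library size after TMM normalization (trimmed mean of M values). In bulk aorta, fewer cells of a type and less RNA per cell cannot be told apart.

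No gene passed the test between D-3 IR and D+1 IR. Of 17617 genes tested, 0 reached an adjusted p under 0.05 in the quasi-likelihood F-test of edgeR (two-sided, Benjamini-Hochberg adjustment), and the smallest adjusted p was 0.409. At an unadjusted p under 0.05 there were 1182 genes higher in D-3 IR (6.71%) and 836 higher in D+1 IR (4.75%), 11.5% together. When D+1 IR 1, 2 and 3 were left out the shares were 2.11% and 1.35%, from 372 and 237 genes, and again 0 passed after adjustment. The median log2 fold change (D-3 IR over D+1 IR, so that positive values are higher in D-3 IR) was -0.04 over all genes in both fits, and 8001 genes (45.4%) had one above 0. All fold changes below come from this test, with their standard errors (SE), and none reached an adjusted p under 0.05.

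Other tools drew the line elsewhere. DESeq2 called 10 genes, all higher in D-3 IR (0.0568%), namely Alas2, Hbb-bs, Hbb-bt, Bpgm, Lbh, Adamts8, Adamts10, Htra1, Rrad and St6gal1. After leaving out D+1 IR 1, 2 and 3 it called 13 genes higher in D-3 IR (0.0738%) and 2 higher in D+1 IR (0.0114%), and 3 genes were in both sets of calls. The limma voom method called 0 genes, and with sample quality weights 1249 higher in D-3 IR (7.09%) and 1049 higher in D+1 IR (5.95%), a count that was 0 without D+1 IR 1, 2 and 3. In 28 genes (0.159%) no D-3 IR library overlapped a D+1 IR library, 21 of them higher in D-3 IR (0.119%) and 7 higher in D+1 IR (0.0397%). Log2 CPM also varied more between mice of D+1 IR, with a median SD over genes of 0.57 against 0.45 in D-3 IR.

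**Figure D1:**
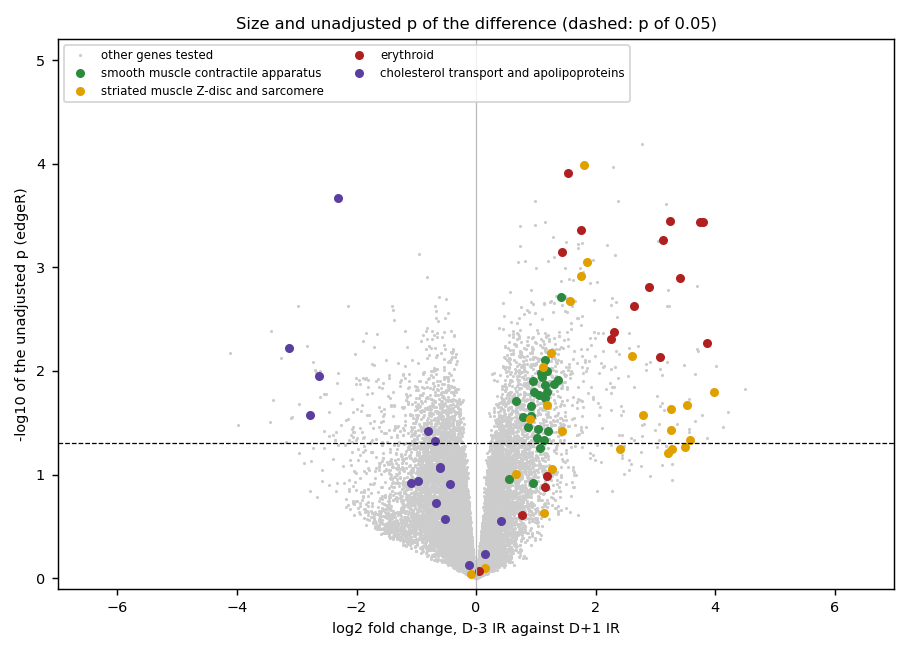
Each point is 1 of the 17617 genes tested. The x axis gives the log2 fold change of D-3 IR over D+1 IR and the y axis -log10 of edgeR's unadjusted p. Colored points mark members of 4 lists, and the erythroid, contractile and Z-disc members lie mostly to the right, above the dashed line at a p of 0.05, whereas the apolipoprotein members lie mostly to the left.

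The mean log2 CPM of the erythroid genes was higher in every D-3 IR library than in any D+1 IR library. Relative to the mean over the 14 irradiated libraries, it was -0.34 in D-3 IR 15 and 0.35 to 2.55 in the other D-3 IR libraries, against -1.66 to -0.42 in D+1 IR. All 18 members tested, of 20 listed, had a positive log2 fold change, 14 of them at an unadjusted p under 0.05 against 6.71% of all genes, and their median was 2.47 against -0.04 over all genes. Without D+1 IR 1, 2 and 3 the median was 3.27, with 14 members at an unadjusted p under 0.05 against 2.11% of all genes. Leaving out any 1 library gave medians of 2.11 to 2.77. The summed level of the erythroid genes was 819.8 to 11019 CPM in D-3 IR, 346 to 1794 CPM in D+1 IR and 304 to 7358 CPM in control.

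Alas2, which makes the first enzyme of heme synthesis in red cell precursors (ENSMUSG00000025270.14, chrX:150547375-150570638, + strand, GRCm38), stood at 33.3 to 353 CPM (median 106) in D-3 IR. In D+1 IR it stood at 3.38 to 24.3 CPM (median 9.78), so that every D-3 IR library lay above every D+1 IR library. The log2 fold change was 3.13 (SE 0.75), and 3.42 without D+1 IR 1, 2 and 3. Control aortas spanned 1.02 to 176 CPM (median 82.7), from below the lowest D+1 IR library to within the D-3 IR range. Trim10, a ring-finger protein of terminal erythroid cells (ENSMUSG00000073400.7, chr17:36869574-36877833, + strand), was at 1.16 to 14.0 CPM (median 3.51) in D-3 IR and at 0.0441 to 0.748 CPM (median 0.213) in D+1 IR, again with no overlap. Its log2 fold change was 3.75 (SE 0.86).

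Genes of the red cell membrane followed the same order. The level of Slc4a1, the anion exchanger band 3, was 3.04 to 53.7 CPM (median 10.0) in D-3 IR and 0.568 to 3.04 CPM (median 1.11) in D+1 IR, with a log2 fold change of 3.41 (SE 0.90). Its lowest D-3 IR value and its highest D+1 IR value, in D-3 IR 15 and D+1 IR 1, were nearly equal. Log2 fold changes were 1.76 (SE 0.41) for Sptb, the beta-spectrin, and 3.08 (SE 1.02) for Epb42, the membrane protein 4.2.

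The globin genes were the most abundant of the list. Hbb-bs, an adult beta-globin, stood at 185 to 4819 CPM (median 1696) in D-3 IR and at 99.5 to 643 CPM (median 189) in D+1 IR, with a log2 fold change of 2.64 (SE 0.75). D-3 IR 15 lay low, at 185 CPM, within the range of D+1 IR, and D-3 IR 16 lay highest. The values for Hbb-bt, Hba-a1 and Hba-a2 were 2.89 (SE 0.78), 2.26 (SE 0.71) and 2.31 (SE 0.71). Hba-a1 and Hba-a2 are near-identical copies, as are the beta-globin genes, so how reads were split between them is uncertain. Bpgm, which makes bisphosphoglycerate in red cells, had 1.44 (SE 0.35), and Tent5c, a poly(A) polymerase of erythroblasts and plasma cells, had 1.54 (SE 0.32) with no overlap between the groups.

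Gata1, the erythroid transcription factor, was counted at no more than 0.933 CPM in any D-3 IR library and had a log2 fold change of 1.15 (SE 0.73). Klf1 and Ahsp were listed but not tested. Of the 20 names listed 19 were matched to a gene, and 18 genes had enough counts. Fech and Ermap were among the tested members that did not reach an unadjusted p under 0.05.

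**Figure D2:**
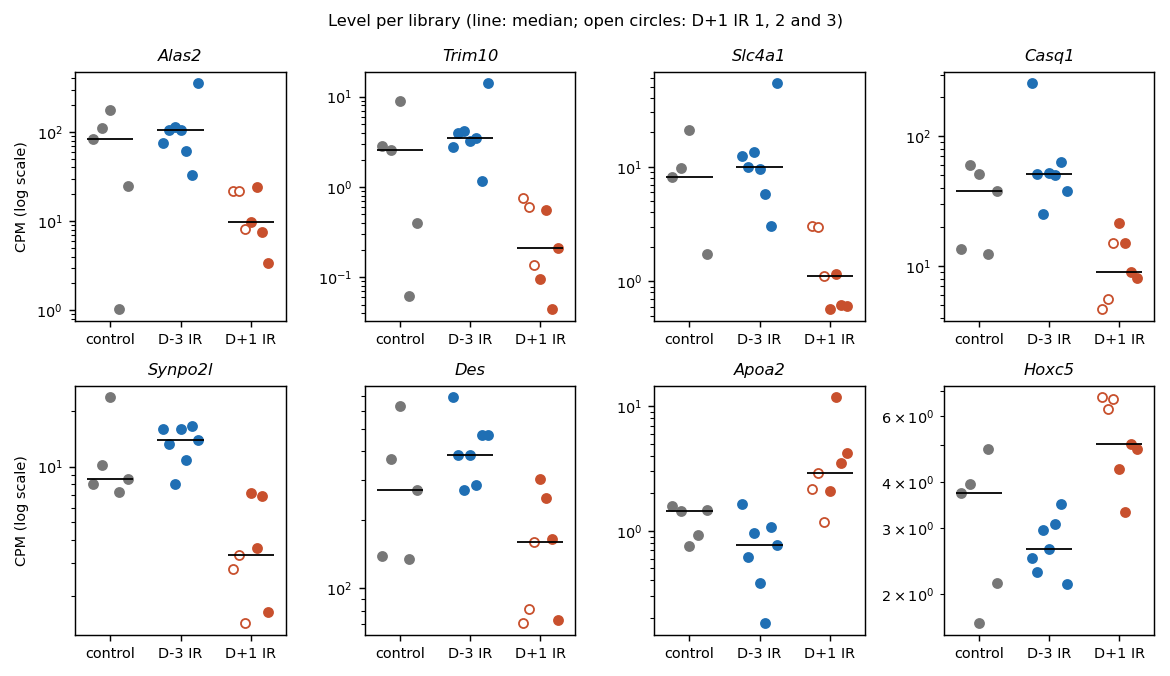
Each point is 1 library, on a log scale of CPM, by group. Lines are medians and open circles are D+1 IR 1, 2 and 3. Alas2, Trim10, Slc4a1, Casq1 and Synpo2l show no overlap between D-3 IR and D+1 IR, Apoa2 and Hoxc5 are higher in D+1 IR with some overlap, and the control libraries span much of both groups.

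Binding sites of GATA1 hold the letters of a GATA box, and 3 promoters that do are printed here because their genes are members of the erythroid list described above. The search covered the 250 bases before each RefSeq transcription start on GRCm38.p6, for AGATAA or TGATAA on either strand. These letters were found for 8 of 13 erythroid genes with a promoter sequence (61.5%) and for 1493 of 12497 tested genes with one (11.9%). Alas2 (chrX:150547167-150547416, + strand), Trim10 (chr17:36869324-36869573, + strand) and Epb42 (chr2:121036878-121037127, - strand) each hold 1 such match, present as its reverse complement and starting 86, 163 and 226 bases before the start. The match is a description of the sequence and not a measured site. Capitals mark it in the sequences, which run 5′ to 3′.
Alas2: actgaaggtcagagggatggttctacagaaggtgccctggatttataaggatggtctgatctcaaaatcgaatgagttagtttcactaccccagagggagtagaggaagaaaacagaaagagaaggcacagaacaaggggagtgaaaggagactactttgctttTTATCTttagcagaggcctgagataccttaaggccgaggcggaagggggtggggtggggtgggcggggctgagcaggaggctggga
Trim10: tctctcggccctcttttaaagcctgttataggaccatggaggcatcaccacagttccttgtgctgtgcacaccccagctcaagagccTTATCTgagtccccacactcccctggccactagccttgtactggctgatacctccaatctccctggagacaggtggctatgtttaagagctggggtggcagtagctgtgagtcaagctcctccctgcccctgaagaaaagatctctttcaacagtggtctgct
Epb42: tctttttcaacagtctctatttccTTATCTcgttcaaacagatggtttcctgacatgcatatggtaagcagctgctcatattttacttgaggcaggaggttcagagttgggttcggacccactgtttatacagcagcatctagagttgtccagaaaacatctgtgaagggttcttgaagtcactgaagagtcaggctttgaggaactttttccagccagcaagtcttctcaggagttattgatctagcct

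Smooth muscle contractile genes were higher in D-3 IR as a group, by an amount that was smaller without D+1 IR 1, 2 and 3. All 25 members had a positive log2 fold change, 22 of them at an unadjusted p under 0.05 against 6.71% of all genes, and their median was 1.07. The median was 0.74 without D+1 IR 1, 2 and 3, and 2 members were at an unadjusted p under 0.05 against 2.11% of all genes. None was called by DESeq2. By limma voom with sample quality weights 24 were called, against 7.09% of all genes higher in D-3 IR. That method called 0 genes of any kind without D+1 IR 1, 2 and 3. In each library, the mean log2 CPM of the list relative to its mean over the 14 irradiated libraries was lowest in D+1 IR 3 (-2.06), D+1 IR 20 (-1.74) and D+1 IR 1 (-1.19), whereas D+1 IR 17, 18 and 19 lay between 0.14 and 0.51, within the D-3 IR range of 0.06 to 1.27. D+1 IR 20 was also the richest in macrophage RNA (5701 CPM). White adipocyte RNA was at 39003 and 39254 CPM in D+1 IR 1 and 3, but it was highest in D+1 IR 2 (49366 CPM), where the contractile value was -0.37, and was 31051 CPM in D+1 IR 19, where it was 0.14. The part of either in the contractile values was not tested.

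Des, the intermediate filament desmin, had the smallest p of the list. It stood at 270.3 to 690.4 CPM (median 384) in D-3 IR and at 70.2 to 301 CPM (median 159.6) in D+1 IR, with a log2 fold change of 1.43 (SE 0.40), and D+1 IR 17 alone lay within the D-3 IR range. Acta2 had a log2 fold change of 1.14 (SE 0.53) and overlapped widely, as its levels above show. Myh11, the smooth muscle myosin heavy chain, was at 1678 to 4512 CPM (median 2293) in D-3 IR and at 176 to 2860 CPM (median 1398) in D+1 IR. For Tpm2, a tropomyosin that lies along actin filaments, the levels were 976 to 2300 CPM (median 1484) and 246 to 1243 CPM (median 822), and the log2 fold change was 1.16 (SE 0.39). Calponin, from Cnn1, had 1.21 (SE 0.54), the regulatory light chain gene Myl9 1.16 (SE 0.43), and Ppp1r14a, an inhibitor of myosin phosphatase, 1.18 (SE 0.41).

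Among 20 regulators of smooth muscle transcription, 4 had an unadjusted p under 0.05, all higher in D-3 IR, against 6.71% of all genes, and 3 did without D+1 IR 1, 2 and 3, against 2.11%. Lbh, a transcription cofactor, was at 179 to 358 CPM (median 228) in D-3 IR and at 94.5 to 185 CPM (median 127) in D+1 IR, and only 1 pair of libraries overlapped between the groups. The Notch target Heyl had a log2 fold change of 1.22 (SE 0.40) and Mef2c, a transcription factor of muscle and vessel development, 0.74 (SE 0.24). The median of the list was 0.21, and 0.16 without D+1 IR 1, 2 and 3.

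Genes of the Z-disc and sarcomere, which anchor and order actin filaments in striated muscle and of which some are used by smooth muscle too, had a median of 1.81 over 25 members, with 24 positive and 16 at an unadjusted p under 0.05, all higher in D-3 IR, against 6.71% of all genes. Without D+1 IR 1, 2 and 3 the median was 1.49, and 10 members reached that p against 2.11% of all genes. Synpo2l, an actin-bundling protein of the Z-disc, was at 8.02 to 16.5 CPM (median 13.9) in D-3 IR and at 1.42 to 7.16 CPM (median 3.32) in D+1 IR, with no overlap. Myo18b, an unconventional myosin of sarcomeres, had a log2 fold change of 1.85 (SE 0.47), Fbxo40, a muscle F-box protein, 1.75 (SE 0.46), and Ldb3, the Z-disc protein ZASP, 1.57 (SE 0.44).

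Casq1, the calcium-binding protein calsequestrin of the sarcoplasmic reticulum (ENSMUSG00000007122.12, chr1:172209894-172219868, - strand), had the smallest p of all genes. Its level was 25.3 to 257 CPM (median 51.4) in D-3 IR and 4.62 to 21.3 CPM (median 9.03) in D+1 IR, without overlap, and its log2 fold change was 2.77 (SE 0.54). Hrc, which binds calcium in the same compartment, stood at 10.1 to 71.7 CPM (median 15.3) and 2.34 to 8.40 CPM (median 4.70), also without overlap, with 2.30 (SE 0.47). Both genes are highly expressed in skeletal muscle. Of the 21 sarcoplasmic reticulum genes, 6 had an unadjusted p under 0.05, all higher in D-3 IR, against 6.71% of all genes, with Jph1, a junctophilin, at 1.25 (SE 0.41), and the median was 0.41. The count was 5 and the median 0.72 without D+1 IR 1, 2 and 3.

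The skeletal muscle list, with fast myosins, troponins and creatine kinase, had a median of 3.19 over 21 members, all positive, and 12 at an unadjusted p under 0.05 against 6.71% of all genes. Its summed level was 98.6 to 10911 CPM in D-3 IR and 57.6 to 1165 CPM in D+1 IR. D-3 IR 10 held 10911 CPM, D-3 IR 15 4201 CPM and D+1 IR 3 1165 CPM, and every other irradiated library 57.6 to 354 CPM. Without these 3 libraries the median of the skeletal muscle list was 0.17, with 0 members at an unadjusted p under 0.05. The Z-disc median was then 0.57, against 1.81 with them, with 9 of 25 members higher in D-3 IR at an unadjusted p under 0.05 against 5.14% of all genes (2.96% higher in D+1 IR), and the sarcoplasmic reticulum median 0.27, with 3 of 21. Single genes kept more of their difference, with log2 fold changes of 2.04 for Casq1, 1.55 for Synpo2l, 1.67 for Myo18b and 1.38 for Hrc. In D-3 IR 11, 12, 13, 14 and 16, where Ckm, the muscle creatine kinase, was at 1.68 to 6.62 CPM, Casq1 was at 25.3 to 52.2 CPM. Casq1 reached 15.2 CPM in D+1 IR 3, where Ckm was at 58.0 CPM. The part of skeletal muscle in these differences was not tested.

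CArG boxes were looked for in the same promoter windows, because the contractile and Z-disc genes include targets of serum response factor. They were found on either strand for 3 of 22 contractile genes with a sequence (Myl9, Myl6 and Vcl), for 3 of 15 Z-disc genes (Ldb3, Myom1 and Nebl), for 0 of 13 erythroid genes and for 181 of 12497 genes (1.45%). Myl9 (chr2:156775214-156775463, + strand) and Ldb3 (chr14:34588682-34588931, - strand, 1 of 2 listed starts) are printed with the box in capitals, 161 and 35 bases before the start. Each of the 2 listed promoters of Ldb3 holds a CArG box. The window leaves out introns and sequence farther upstream.
Myl9: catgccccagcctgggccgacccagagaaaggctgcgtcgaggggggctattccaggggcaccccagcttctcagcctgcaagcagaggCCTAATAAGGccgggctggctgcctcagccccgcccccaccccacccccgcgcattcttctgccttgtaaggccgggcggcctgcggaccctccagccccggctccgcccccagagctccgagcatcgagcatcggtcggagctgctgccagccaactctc
Ldb3: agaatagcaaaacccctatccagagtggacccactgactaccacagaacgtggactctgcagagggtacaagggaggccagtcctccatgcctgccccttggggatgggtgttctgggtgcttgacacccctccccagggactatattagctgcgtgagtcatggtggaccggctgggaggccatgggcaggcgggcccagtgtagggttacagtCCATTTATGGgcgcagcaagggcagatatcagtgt

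Channels and signaling genes of smooth muscle had smaller medians. Of 24 ion channel genes 5 had an unadjusted p under 0.05, all higher in D-3 IR, against 6.71% of all genes, among them P2rx1, an ATP-gated channel, with 1.42 (SE 0.48), Kcnmb1, the beta subunit of the large-conductance potassium channel, with 1.35 (SE 0.56), and Cacna1c, the L-type calcium channel, with 0.89 (SE 0.37). In nitric oxide and cGMP signaling 2 of 19 did, Npr1, a natriuretic peptide receptor, with 0.84 (SE 0.27) and Mrvi1, a substrate of cGMP-dependent kinase, with 1.32 (SE 0.44). In the list of renin-angiotensin system genes and vasoactive receptors 5 of 25 did. They were led by the serotonin receptor gene Htr2a (1.76, SE 0.57) and Rgs5, a brake on G-protein signals (1.43, SE 0.53). Enpep, the aminopeptidase that cleaves AngII, had 0.74 (SE 0.30). The counts of these 3 lists without D+1 IR 1, 2 and 3 were 1, 0 and 1, against 2.11% of all genes. Their medians were 0.34, 0.30 and 0.07, and the last lay between -0.07 and 0.39 with any 1 library left out.

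**Figure D3:**
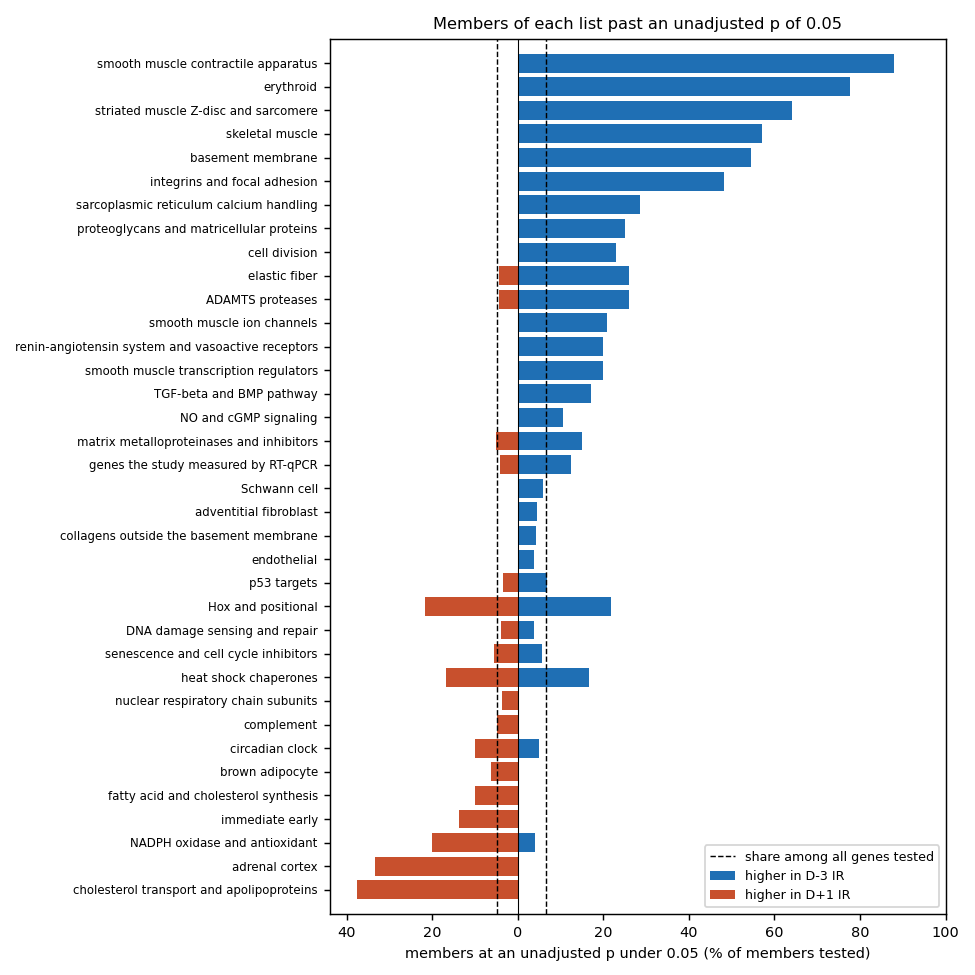
Bars give the share of tested members of each list at an unadjusted p under 0.05, to the right for members higher in D-3 IR and to the left for members higher in D+1 IR. Dashed lines mark the shares among all genes, 6.71% and 4.75%. Only lists with at least 1 such member are drawn, and the contractile, erythroid and Z-disc lists reach farthest to the right.

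Several lists of matrix genes also lay on the D-3 IR side with all libraries. In the basement membrane list 12 of 22 members had an unadjusted p under 0.05, all higher in D-3 IR, against 6.71% of all genes, with a median of 0.83. The count was 1, against 2.11% of all genes, and the median 0.50 without D+1 IR 1, 2 and 3. Hspg2, the heparan sulfate proteoglycan perlecan, was at 803 to 2148 CPM (median 1303) in D-3 IR and 230.4 to 1231 CPM (median 593) in D+1 IR, with overlap. Agrn, or agrin, had a log2 fold change of 0.73 (SE 0.22), Col15a1 1.33 (SE 0.45), the collagen IV gene Col4a1 0.95 (SE 0.33) and the laminin gene Lama5 1.11 (SE 0.41).

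Of 23 elastic fiber genes 6 were higher in D-3 IR and 1, Fbn2, higher in D+1 IR at an unadjusted p under 0.05, against 6.71% and 4.75% of all genes, and 3 and 1 without D+1 IR 1, 2 and 3. The median was 0.61, or 0.27 without them. Eln, elastin itself, ranged from 12681 to 47956 CPM (median 27420) in D-3 IR and from 445 to 15384 CPM (median 5834) in D+1 IR, with a log2 fold change of 1.98 (SE 0.66), and 1.46 without D+1 IR 1, 2 and 3. D+1 IR 3 held the lowest value, 445 CPM. Fbln5, a fibulin needed to assemble elastic fibers, had 1.49 (SE 0.43) and Ltbp1, a latent TGF-beta binding protein, 1.35 (SE 0.49). Collagens outside the basement membrane had a median of 0.35 that was -0.01 without D+1 IR 1, 2 and 3, with 1 of 24, Col6a3 (1.19, SE 0.46), at an unadjusted p under 0.05.

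ADAMTS and adhesion genes leaned to D-3 IR, and the median of metalloproteinases did not. Of 23 ADAMTS family genes 6 were higher in D-3 IR and 1 was higher in D+1 IR at an unadjusted p under 0.05, against 6.71% and 4.75% of all genes, and 3 and 0 without D+1 IR 1, 2 and 3. Adamts8 was at 74.0 to 233 CPM (median 129.5) in D-3 IR and 10.6 to 84.3 CPM (median 16.3) in D+1 IR, with a log2 fold change of 2.19 (SE 0.53), and Adamts10, a protease bound to fibrillin, at 78.8 to 112 CPM (median 96.3) and 24.1 to 69.4 CPM (median 62.7), without overlap. Of 20 metalloproteinases and inhibitors 3 were higher in D-3 IR and 1 was higher in D+1 IR at an unadjusted p under 0.05. The shares of all genes were 6.71% and 4.75%, and without D+1 IR 1, 2 and 3 the counts were 2 and 2. Higher in D-3 IR were the membrane-type Mmp17 at 1.53 (SE 0.44) and the inhibitor Reck at 1.08 (SE 0.43), among others. The collagenase Mmp13 was higher in D+1 IR, at -1.92 (SE 0.78). The median of the list was -0.13, with 9 of 20 positive, and -0.34 without D+1 IR 1, 2 and 3. It was 0.11 without D+1 IR 20 alone.

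Integrins and focal adhesion genes had 13 of 27 at an unadjusted p under 0.05, all higher in D-3 IR, against 6.71% of all genes, with a median of 0.64. The count without D+1 IR 1, 2 and 3 was 4, against 2.11% of all genes, and the median 0.38. The integrin genes Itgb3 and Itgb5 had log2 fold changes of 1.34 (SE 0.43) and 1.17 (SE 0.38). Proteoglycans and matricellular genes had 7 of 28 higher in D-3 IR at an unadjusted p under 0.05, among them Sparc (1.03, SE 0.37) and Ccn5 (1.44, SE 0.52), and the TGF-beta and BMP list 5 of 29, led by Smad6 (0.85, SE 0.32), both against 6.71% of all genes. When D+1 IR 1, 2 and 3 were left out, proteoglycans had 2 higher in D-3 IR and 1 higher in D+1 IR, with a median of 0.06 in place of 0.36, and the TGF-beta list 1 and 1, with 0.11 in place of 0.35.

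Immune genes had almost no member at an unadjusted p under 0.05. Of 23 macrophage genes 0 reached it, but 3 were higher in D+1 IR at that p without D+1 IR 1, 2 and 3, against 1.35% of all genes. Their median of -0.66 was 0.04 without D+1 IR 20 and -1.13 without D+1 IR 1, 2 and 3. Cd68, a lysosomal glycoprotein of macrophages, was at 12.4 to 52.4 CPM (median 27.5) in D-3 IR and at 13.4 to 190.4 CPM (median 30.9) in D+1 IR, with D+1 IR 20 alone at the top. The lipid-sensing receptor Trem2 was at 5.68 to 18.2 CPM (median 8.57) and 2.00 to 131 CPM (median 5.74), and its highest value was again in D+1 IR 20. Monocyte chemokines and their receptors had 0 of 21 at an unadjusted p under 0.05 and a median of -0.53, or -0.06 without D+1 IR 20.

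With all libraries the remaining immune lists gave 0 members at an unadjusted p under 0.05 in either direction, except the complement list with 1 of 21, Cfi, higher in D+1 IR, against 4.75% of all genes. These lists were alternative activation and type 2 cytokines (19 tested, median -0.28), inflammatory mediators (26, -0.23), interferon response (28, -0.40), neutrophils and mast cells (16, -0.42), NK cells (13, 0.24) and MHC class II (17, 0.13). The T cell median was 0.41, 1.47 without D+1 IR 1, 2 and 3 and -2.13 without D-3 IR 10. For B and plasma cells it was 0.14, 2.07 and -3.27. The medians of NK cells and MHC class II genes were -0.99 and -0.78 without D-3 IR 10. Thus 4 lists turned with that library, where B cell genes summed to 1554 CPM, and D+1 IR 3 held 1126 CPM. In the same way, the medians of alternative activation, interferon response, and neutrophils and mast cells were 0.04, 0.25 and 0.24 without D+1 IR 20.

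**Figure D4:**
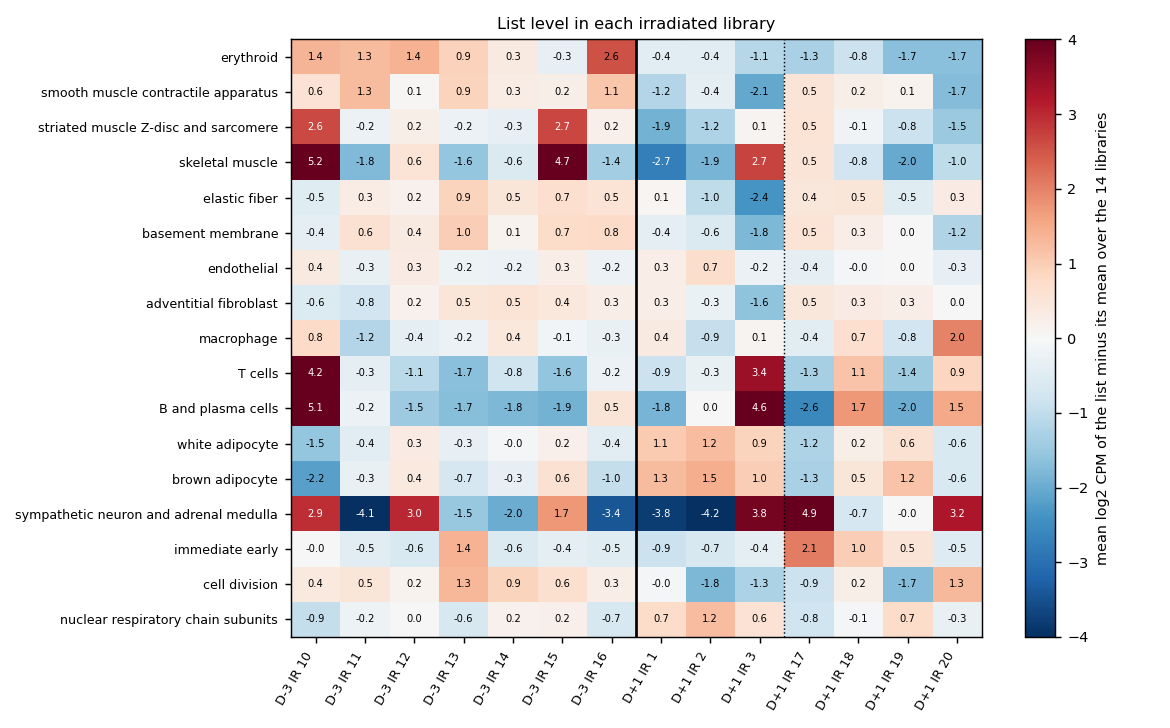
Each cell gives the mean log2 CPM of a list in 1 library minus the mean of that list over the 14 irradiated libraries. The solid line parts D-3 IR from D+1 IR and the dotted line D+1 IR 1, 2 and 3 from 17 to 20. The erythroid list is above 0 in 6 of 7 D-3 IR libraries and below 0 in all D+1 IR libraries, the T and B cell lists are high in D-3 IR 10 and D+1 IR 3, and the skeletal muscle list in D-3 IR 10, D-3 IR 15 and D+1 IR 3.

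Targets of p53, which DNA damage induces, had a median log2 fold change near 0. Of 29 genes 2 were higher in D-3 IR and 1 was higher in D+1 IR at an unadjusted p under 0.05, against 6.71% and 4.75% of all genes, and the median was -0.06, or -0.07 without D+1 IR 1, 2 and 3. Sesn1, a stress-induced regulator of growth signals, had a log2 fold change of 0.40 (SE 0.16), and its group medians were 55.2 and 39.4 CPM. The death receptor gene Fas had 0.54 (SE 0.24) and Bbc3, which encodes the pro-apoptotic PUMA, -0.40 (SE 0.17). Cdkn1a, the cell cycle inhibitor p21, was at 89.9 to 166 CPM (median 127) and 65.8 to 213 CPM (median 132), and its log2 fold change was -0.06 (SE 0.28).

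DNA damage sensing and repair genes had 1 of 26 higher in D-3 IR, Fancd2 (0.69, SE 0.31), and 1 in D+1 IR, Xrcc6 (-0.51, SE 0.24), against 6.71% and 4.75% of all genes, and 0 and 0 without D+1 IR 1, 2 and 3. Cell division genes were all on the D-3 IR side, 26 of 26, with 6 at an unadjusted p under 0.05, against 6.71% of all genes, and a median of 0.74. D+1 IR 20 stood apart from the other D+1 IR libraries, with a mean log2 CPM of 4.25 against 1.16 to 3.19, and without it the median was 1.39. The mitotic kinesin gene Kif20a was at 3.91 to 16.9 CPM (median 6.47) in D-3 IR and 0.622 to 5.52 CPM (median 3.20) in D+1 IR, and the checkpoint kinase gene Bub1 had 1.31 (SE 0.53). Without D+1 IR 1, 2 and 3 the median was 0.43, with 0 members at an unadjusted p under 0.05. Senescence and cell cycle inhibitor genes had 1 of 18 on each side at an unadjusted p under 0.05, near the 6.71% and 4.75% of all genes. These were Igfbp7 (1.18, SE 0.41) and the stress-induced Gadd45g (-0.58, SE 0.19). Without D+1 IR 1, 2 and 3 the counts were 0 and 1.

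Stress genes leaned to D+1 IR in part. Immediate early genes had 0 of 22 higher in D-3 IR and 3 higher in D+1 IR at an unadjusted p under 0.05, against 4.75% of all genes, and 7 without D+1 IR 1, 2 and 3, against 1.35%. Their median was -0.41, or -0.70 without those libraries, and 0.08 without D+1 IR 17 alone. Myc, a transcription factor of growth, was at 5.22 to 15.9 CPM (median 8.04) in D-3 IR and 5.64 to 84.3 CPM (median 15.8) in D+1 IR. The AP-1 subunit gene Junb had a log2 fold change of -1.01 (SE 0.40) and Zfp36, which degrades cytokine mRNA, -0.73 (SE 0.32). Of 18 heat shock chaperones 3 were higher in D-3 IR and 3 were higher in D+1 IR, against 6.71% and 4.75% of all genes. When D+1 IR 1, 2 and 3 were left out these were 1 and 7, against 2.11% and 1.35%, and the median of -0.14 was -0.50. It was 0.05 without D+1 IR 17. Those higher in D-3 IR include Hspb6 (1.04, SE 0.32) and Hspb7 (1.26, SE 0.55), small chaperones that muscle expresses, whereas the DnaJ gene Dnajb1 (-1.20, SE 0.53) reached 601 CPM in D+1 IR 17.

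Of 25 NADPH oxidase and antioxidant genes 1 was higher in D-3 IR, the extracellular superoxide dismutase gene Sod3 (0.82, SE 0.32), and 5 were higher in D+1 IR at an unadjusted p under 0.05, against 6.71% and 4.75% of all genes, and 0 and 3 without D+1 IR 1, 2 and 3. Among the latter were the mitochondrial superoxide dismutase gene Sod2, at 101 to 338 CPM (median 198) in D-3 IR and 173 to 697 CPM (median 469.6) in D+1 IR, and Srxn1, or sulfiredoxin, with -0.45 (SE 0.18). Without D+1 IR 1, 2 and 3 the value for Sod2 was -0.51, against -0.92 with them. Of 20 circadian genes 1 was higher in D-3 IR and 2 were higher in D+1 IR, against 6.71% and 4.75% of all genes, and 0 on either side without D+1 IR 1, 2 and 3, with Usp2 at -0.71 (SE 0.22) and Bhlhe40 at -0.82 (SE 0.26), and their median was -0.11, or 0.21 without D+1 IR 1, 2 and 3.

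Apolipoprotein and cholesterol transport genes lay on the D+1 IR side. Of 16 tested, 6, Apoe among them, were at an unadjusted p under 0.05, all higher in D+1 IR, against 4.75% of all genes, and 4 without D+1 IR 1, 2 and 3, against 1.35%. The median was -0.68, or -0.56 without them. Apoa2, a protein of high-density lipoprotein made by the liver (ENSMUSG00000005681.13, chr1:171225054-171226379, + strand), had the smallest p among genes higher in D+1 IR. It was at 0.181 to 1.64 CPM (median 0.767) in D-3 IR and 1.17 to 11.8 CPM (median 2.91) in D+1 IR, with a log2 fold change of -2.31 (SE 0.50) and -2.77 without D+1 IR 1, 2 and 3. The groups overlapped in D-3 IR 10 and D+1 IR 3, and D+1 IR 18 was highest. Other liver-made plasma proteins stood at the same low levels, with Apoa1 at 0.0235 to 2.37 CPM (median 0.382) and 0.207 to 22.3 CPM (median 2.07) and Fetub, a fetuin, at -1.39 (SE 0.40).

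Other genes with a small p among those higher in D+1 IR include the following. Hoxc5 was at 2.13 to 3.48 CPM (median 2.64) in D-3 IR and at 3.33 to 6.73 CPM (median 5.04) in D+1 IR, with overlap at the edge, and a log2 fold change of -0.96 (SE 0.24). Katnal2, related to a microtubule-severing enzyme, had -1.40 (SE 0.40), Zfp703, a transcriptional repressor, -0.82 (SE 0.22), Nln, the peptidase neurolysin, -0.68 (SE 0.19), and Pak1ip1, a ribosome biogenesis factor, -0.50 (SE 0.14) with no overlap between the groups.

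Hox genes, which mark position along the body axis, lay on both sides, with 5 of 23 higher in D-3 IR and 5 higher in D+1 IR at an unadjusted p under 0.05, against 6.71% and 4.75% of all genes, and 3 and 1 without D+1 IR 1, 2 and 3. Hoxa10 was at 15.8 to 29.6 CPM (median 20.1) in D-3 IR and 2.86 to 16.5 CPM (median 8.53) in D+1 IR, with 1.44 (SE 0.40). Hoxa9, Hoxb2, Hoxc10 and Hoxd8 had log2 fold changes of 0.68, 0.57, 1.16 and 0.73. On the other side, beside Hoxc5, were Hoxa4 (-0.74), Hoxa5 (-0.82), Hoxc6 (-0.37) and Hoxc8 (-0.59).

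Markers of tissue around the vessel ranged widely within both groups. White adipocyte genes summed to 7451 to 23612 CPM in D-3 IR and 7352 to 49366 CPM in D+1 IR, and brown adipocyte genes to 519 to 4329 and 982 to 8663 CPM. Their medians were -0.79 and -1.04, and -0.19 and -0.40 without D+1 IR 1, 2 and 3, which were rich in both. Nuclear genes of the respiratory chain, abundant in brown fat, had a median of -0.72, or -0.26 without those libraries. In edgeR 1 of 27 was higher in D+1 IR at an unadjusted p under 0.05, against 4.75% of all genes. By limma voom with sample quality weights 23 of 27 were called, against 7.09% and 5.95% of all genes higher in D-3 IR and D+1 IR. That method called 0 genes without those libraries. Genes of the mitochondrial genome had a median of -0.27, or 0.45 without those libraries. Of 20 fatty acid and cholesterol synthesis genes 18 were higher in D+1 IR, with a median of -0.65, or -0.37 without those libraries. Only 2 were so at an unadjusted p under 0.05, Srebf1 (-0.70, SE 0.26) and Fdft1 (-0.92, SE 0.38), against 4.75% of all genes. That count was 0 without D+1 IR 1, 2 and 3.

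Sympathetic neuron and adrenal medulla genes summed to 23.7 to 2354 CPM in D-3 IR and 26.7 to 8318 CPM in D+1 IR, with a median of -1.41 and 0 of 21 at an unadjusted p under 0.05. The median was -0.55 without D+1 IR 17, the D+1 IR library richest in them. Cyp11a1, the first enzyme of steroid synthesis in the adrenal cortex, was at 16.5 CPM in D+1 IR 3 and at no more than 0.454 CPM in any D-3 IR library. Its log2 fold change of -4.11 (SE 1.35) was -1.13 without D+1 IR 1, 2 and 3. Endothelial, adventitial fibroblast, Schwann cell and mesothelial lists had medians of -0.05, 0.02, 0.16 and 0.33, with 1, 1, 1 and 0 members higher in D-3 IR at an unadjusted p under 0.05, all below the share of all genes. Schwann cells turned to -0.40 without D-3 IR 10 and mesothelial genes to -0.99 without D-3 IR 16. The part of these tissues in the results above was not tested.

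**Figure D5:**
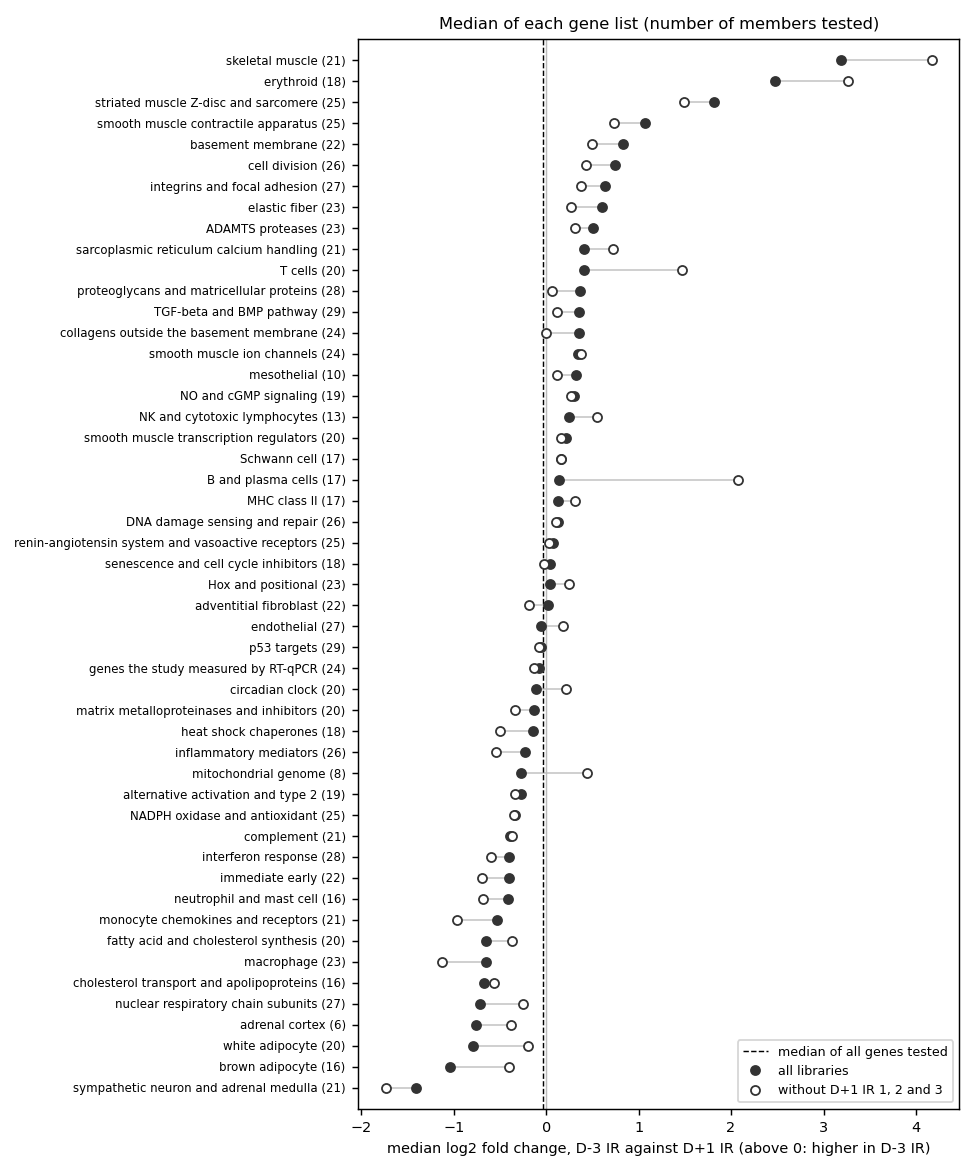
Points give the median log2 fold change of each of the 50 lists, filled for all libraries and open without D+1 IR 1, 2 and 3, with the number of tested members in parentheses. The dashed line is the median of all genes, -0.04. The erythroid and skeletal muscle lists lie farther to the right without those libraries, and the contractile, basement membrane and adipocyte lists lie closer to 0.

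Of 24 genes that were also measured by RT-qPCR, 3 were higher in D-3 IR (Acta2, Tpm2 and Lama5) and 1 in D+1 IR (Mmp13) at an unadjusted p under 0.05 here, against 6.71% and 4.75% of all genes. Leaving out D+1 IR 1, 2 and 3 gave 0 and 2. That list is the choice of the study, made in part on the same experiment, and is not independent evidence of a direction. Prkg1, the cGMP-dependent protein kinase, was at 19.1 to 59.9 CPM (median 26.4) in D-3 IR and 3.28 to 38.5 CPM (median 18.0) in D+1 IR. The monocyte chemokine gene Ccl2 was at 1.76 to 23.3 CPM (median 9.17) and 2.79 to 28.1 CPM (median 9.24), and its receptor gene Ccr2 at 6.65 to 28.4 CPM (median 16.0) and 5.02 to 57.6 CPM (median 17.2). Fbn1, fibrillin of the microfibrils around elastin, was at 145 to 1034 CPM (median 576) and 37.9 to 569 CPM (median 369). For each of these 4 genes the groups overlapped, with log2 fold changes of 0.90 (SE 0.52), -0.53 (SE 1.02), -0.48 (SE 0.67) and 0.75 (SE 0.49). For the cGMP-dependent protein kinase gene the study reports the reverse by RT-qPCR, with less RNA in mice irradiated before AngII than after it. For the smooth muscle actin and laminin genes it reports the direction seen here. The counts do not settle the direction for the kinase gene, because its groups overlapped.

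Among the 28 genes without overlap were 5 of the 18 erythroid genes tested, all higher in D-3 IR as were 0.119% of all genes, with Alas2, Trim10, Slc4a1 and Tent5c among them. Aard, a gene of unknown role here, had the widest gap, at 0.799 to 1.96 CPM (median 1.02) in D-3 IR and 0 to 0.426 CPM (median 0.246) in D+1 IR, with a log2 fold change of 2.61 (SE 0.75). Ccdc9b, a coiled-coil protein gene, was at 41.1 to 90.3 CPM (median 47.6) and 9.09 to 32.7 CPM (median 25.3), with 1.29 (SE 0.31). Against D+1 IR 17 to 20 alone, 53 genes were higher in every D-3 IR library (0.301%) and 27 lower in every one (0.153%).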

How the data were processed

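RNA was measured in abdominal aortas of 7 D-3 IR, 7 D+1 IR and 5 control mice, 1 library each. The authors selected poly(A) RNA, prepared TruSeq Stranded libraries, and after FastQC mapped the reads to Ensembl GRCm38 with STAR 2.7.9a. The files they deposited hold STAR's read counts per gene, unstranded and by strand, and the joined table they deposited equals the unstranded counts in 773262 of 773262 values. The second-strand column took 49.9% to 50.1% of reads in genes that had a strand, so that overlapping antisense genes cannot be told apart. The unstranded counts were used. No table of the authors' own comparisons was used.

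Of 55414 genes, 35160 had a count and 17617 passed edgeR's filterByExpr. Gene names and coordinates came from GENCODE M21 for 52081 IDs. edgeR 4.0.16 in R 4.3.3 fitted all 3 groups with TMM factors, no intercept and quasi-likelihood F-tests, and p-values were adjusted by Benjamini-Hochberg over all genes tested. SE is the absolute log2 fold change over the square root of F. DESeq2 1.42.0 and limma 3.58.1 were alternatives. Log2 CPM used a prior count of 2. In counts simulated for D-3 IR against D+1 IR over 17617 genes, 54%, 80%, 96% and 98% of genes changed 2-, 4-, 8- and 16-fold were recovered, 50 genes at each size, with 6 false calls. Genes of low mean level were not among those changed. Each gene was drawn independently, without shifts shared by genes of the same tissue. The shares recovered may therefore be too high for the real libraries. Each library has its own sample number, and the p-values measure the spread between these mice. The closest pair of libraries differed far beyond counting error.

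Groups were taken from the sample titles. The groups compared and the 50 gene lists were chosen with earlier results of these data known. The genes named were the 12 with the smallest p in each direction, the 3 with the smallest p in each list, the genes the study measured by RT-qPCR, those called by DESeq2, those with no overlap between the groups and cell type markers. Any other gene given was chosen after its values were seen. A few of these genes were left out of the text. Promoters are 250 bases before the RefSeq start on GRCm38.p6. Alternatives changed the normalization, the filter, the test and the libraries.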

Additional observations from a re-analysis of the deposited data

Results flagged for a closer look

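Each value here is the log2 CPM of a gene, or a measure of the library itself, in 1 library. That library stood apart from the rest of its group, by a gap to the nearest library that was large for the range of the group (Dixon's test). Of 333 groups of values tested 15 stood out, and chance alone gives about 1 in 20. D+1 IR 3 was low for Adamts10 (4.59 against 5.51 to 6.12 in the other D+1 IR libraries), for the matricellular gene Ccn5 (3.21 against 6.27 to 8.01) and for Fbn1 (5.24 against 7.74 to 9.15), and high for Cyp11a1 (4.05 against -2.81 to -1.28). D-3 IR 10 was high for Casq1 (8.01 against 4.66 to 6.00) and D-3 IR 12 low for Hspb6 (5.92 against 6.58 to 7.03). In D-3 IR 11 the 10 most abundant genes took 18.5% of counts, against 15.5% to 16.3% in the other D-3 IR libraries. Among the non-irradiated libraries, control 6 was high for Agrn (7.17), Heyl (8.30), Hoxa9 (4.78), Hoxd8 (5.11), Rgs5 (12.8) and Synpo2l (4.57) and low for Nln (3.27), and control 9 was high for Junb (8.16). The control libraries entered the estimate of the spread but not the difference between D-3 IR and D+1 IR.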

How the results depend on the processing

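edgeR called 0 genes under every normalization and filter and with any 1 library left out. DESeq2 called 10, or 15 without D+1 IR 1, 2 and 3. limma voom with sample quality weights called 2298, or 569 without D-3 IR 10 and D+1 IR 3, an alternative chosen after seeing the data. The 2018 genes at an unadjusted p under 0.05 became 4240 with no filter, 5350 with limma voom and quality weights (4918 without D-3 IR 10 and D+1 IR 3), and 603 with the number in the file names as a term. Without D+1 IR 1, 2 and 3 there were 609 by edgeR, 609 by limma voom and 871 by DESeq2. Leaving out 1 library gave 1277 (without D+1 IR 2) to 3115 (without D+1 IR 17), and the share higher in D-3 IR was 47.6% to 77.7%. The cause was not tested.

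Of 107 genes given with values, 103 kept their direction in all settings. Leaving out 1 library gave log2 fold changes of -0.93 to 0.11 for Cd68 and of -1.66 to 0.14 for Trem2, above 0 only without D+1 IR 20, and of -0.17 to 0.11 for Cdkn1a, above 0 without D-3 IR 13, D-3 IR 16, D+1 IR 18 or D+1 IR 20. Trem2 had 0.0071 with limma voom, and Ckm -0.15 without D-3 IR 10, D-3 IR 15 and D+1 IR 3, also chosen after seeing the data. The medians of 23 of 50 lists changed sign in at least 1 setting. Exact permutation tests of 4 library measures gave p of 0.631 to 0.934 (0.0727 to 0.867 without D+1 IR 1, 2 and 3, adjusted 0.291 to 0.867). Each measure turned without those libraries, D-3 IR minus D+1 IR being 2571206 counts, 2.75 points of mitochondrial share, 3.27 points of the share of the 10 most abundant genes and 1.65 points of multimapped reads.

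No paired analysis was possible because each library came from its own mouse and the groups share no replicate numbers. The spread between mice limits what 7 against 7 libraries can show, and D+1 IR 1, 2 and 3 have no D-3 IR or control library of their number, so that number and group cannot be told apart for them.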
